A study of Mus musculus with 4 samples.

Results

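Claudins are membrane proteins whose extracellular loops pair between neighbouring epithelial cells and form the strands of tight junctions, the seals near the cell apex. Members that line a pore let ions and water pass between cells, and members that seal the strand block that passage, so the mix of claudins sets what an epithelium lets through. In the gut the mix differs between crypt and villus and between fetal and adult life.

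Here 10 claudin genes (Cldn1, Cldn2, Cldn3, Cldn4, Cldn5, Cldn6, Cldn7, Cldn8, Cldn12 and Cldn15) were followed among 15123 genes with a named probe. They were chosen from the family with earlier results of these data known, and genes without a named probe were left out. The 10 other measured claudins are described further below. Spheroids, which are hollow round cysts, were compared with organoids, which bud like crypts, from cultures of small intestinal epithelium. All animals were CD1 wild-type mice: 2 fetuses of embryonic day 16 (E16), 1 fetus of embryonic day 18 (E18) and 1 newborn (P0). Spheroids and organoids of an animal grew in Matrigel with EGF, Noggin and R-spondin1, were picked by shape and were replated for 3 passages. Each animal gave 1 ratio per gene, spheroid against organoid, from 2-colour arrays. Values are log2 ratios, in which 1 stands for a 2-fold difference, and a positive value is taken to mean higher in spheroids, which is likely. The labels state neither the log base nor the direction, and with the opposite sign every direction given here would turn. The files hold ratios and no intensities, so neither the level of a claudin nor the epithelial origin of the cultures could be checked. A ratio near 0 can also come from a gene that neither culture expressed. In such bulk RNA, fewer cells that express a gene and less RNA per cell cannot be told apart.

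The claudins did not share a direction. Cldn15, a pore former of the small intestine, had the lowest ratio, with a mean 3.86-fold lower in spheroids. Cldn4, a barrier claudin, had the highest, with a mean 2.20-fold higher in spheroids. Both kept their sign in 4 of 4 pairs, but neither passed the threshold of an adjusted p under 0.05. In limma 0 of 10 claudins passed, against 4.36% of all genes, 3.02% higher and 1.34% lower. At an unadjusted p under 0.05 there were 4 claudins (Cldn4 and Cldn6 on the positive side, Cldn15 and Cldn3 on the negative side), a share to be read against 20.9% of all genes. The median of the 10 mean ratios was -0.06, beside -0.0033 over all genes.

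The promoters of Cldn4, Cldn3 and Cldn15 are shown because these genes lie on the same chromosome and had the highest ratio and low ratios. In the gene table Cldn4 and Cldn3 have no protein-coding gene between them, and 42 lie between Cldn3 and Cldn15. Each sequence is the 250 bases before the gene's start, 5′ to 3′ on the gene's strand, from RefSeq (GRCm38.p6). They lie at chr5:134946935-134947184 on the minus strand for Cldn4, chr5:134985964-134986213 on the plus strand for Cldn3 and chr5:136967619-136967868 on the plus strand for Cldn15. Capitals mark matches to any of 7 motifs, whose letters are given below.
Cldn4: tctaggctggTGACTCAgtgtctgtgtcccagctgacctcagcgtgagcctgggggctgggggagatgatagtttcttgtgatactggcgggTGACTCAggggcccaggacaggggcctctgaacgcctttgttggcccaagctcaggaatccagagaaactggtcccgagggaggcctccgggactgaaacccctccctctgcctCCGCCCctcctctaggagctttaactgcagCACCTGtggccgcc
Cldn3: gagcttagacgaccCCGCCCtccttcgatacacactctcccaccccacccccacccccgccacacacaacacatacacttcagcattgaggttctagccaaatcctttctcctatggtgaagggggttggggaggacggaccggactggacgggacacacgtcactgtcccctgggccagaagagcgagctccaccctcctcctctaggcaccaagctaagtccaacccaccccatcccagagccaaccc
Cldn15: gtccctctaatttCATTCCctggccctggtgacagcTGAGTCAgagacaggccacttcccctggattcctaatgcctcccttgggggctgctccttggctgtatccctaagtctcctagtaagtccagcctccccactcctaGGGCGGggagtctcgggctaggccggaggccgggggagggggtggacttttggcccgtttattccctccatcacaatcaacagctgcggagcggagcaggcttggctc

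The motifs were searched on both strands, and none of the matches shown overlap. The AP-1 motif TGANTCA occurred in the Cldn4 promoter at 240 to 234 and at 158 to 152 bases before the start, and in the Cldn15 promoter at 214 to 208 bases. It is held by 6.75% of the 32851 promoters of this length in the table. The GC box GGGCGG occurred in all 3 promoters, on the opposite strand in Cldn4 and Cldn3, as in 32.7% of promoters. The Cldn4 promoter also held the E-box CAGGTG (17.2% of promoters) at 14 to 9 bases, and the Cldn15 promoter held the TEAD motif GGAATG (12.6%) at 237 to 232 bases, both on the opposite strand. The TATA box TATAAA (12.4%), the Cdx motif TTTATNG (9.81%) and the Grainyhead motif AACNGGTT (1.79%) had no match in these windows. So the genes with opposite ratios, Cldn4 and Cldn15, both held the AP-1 letters and the GC box. Of the 10 claudins, 9 had a promoter in the table.

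Cldn15 forms cation pores that carry sodium back to the gut lumen, and mice without it develop an enlarged small intestine. Its log2 ratio was -1.89 and -1.94 at E16, -0.65 at E18 and -3.30 at P0. All pairs were thus negative, the newborn pair lay lowest and the E18 pair nearest to 0. The mean was -1.95 ± 1.08 (SD, n = 4), with a 95% interval from -3.22 to -0.67 and an adjusted p of 0.116 in limma. Its mean ranked 50 from the lowest of 15123, and 98.6% of genes varied less between pairs, so the size and the spread were both large. The 2 probes of Cldn15 had means of -1.97 and -1.93, and their values lay within 0.143 of each other in every pair. Markers of absorptive enterocytes, the main cells of the villus, were lower too in some pairs. Of 8 listed, 5 were measured, and their median was -2.64 and -2.90 at E16, 0.45 at E18 and -0.93 at P0. Of the 5, 1 passed as lower, beside 1.34% of all genes. It was Slc5a1, the sodium-glucose transporter, at -2.40 ± 0.58 (adjusted p = 0.0288 in limma). Slc5a1 was -2.30 and -2.90 at E16, -1.63 at E18 and -2.80 at P0. Fabp1 was also negative in 4 of 4 pairs, while Fabp2, Apoa4 and Anpep were positive in the E18 pair, at 0.505, 0.56 and 0.45. The enterocyte median was lowest in the E16 pairs and Cldn15 in the P0 pair. Slc5a1, like Cldn15, was nearest to 0 in the E18 pair. The part of enterocyte content in the Cldn15 ratio was not tested.

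Cldn2, the other classic cation pore of the gut, is known from crypts. Its ratio was -0.16 and -0.08 at E16, -0.19 at E18 and 0.21 at P0. The mean of -0.05 ± 0.18 lay within the negative control range, from -0.16 to 0.07, where 56.9% of all genes lay. Its 2 probes differed in how far they moved: the first stayed between -0.038 and 0.016, while the second was 0.43 at P0 and lay between -0.36 and -0.175 elsewhere. Whether the first probe reads the transcript at all cannot be told from ratios. The interval of the Cldn2 mean, from -0.27 to 0.17, does not reach a 2-fold difference. The pore-forming claudins therefore had ratios of different size, with Cldn15 far below 0 and Cldn2 near it.

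**Figure D1:**
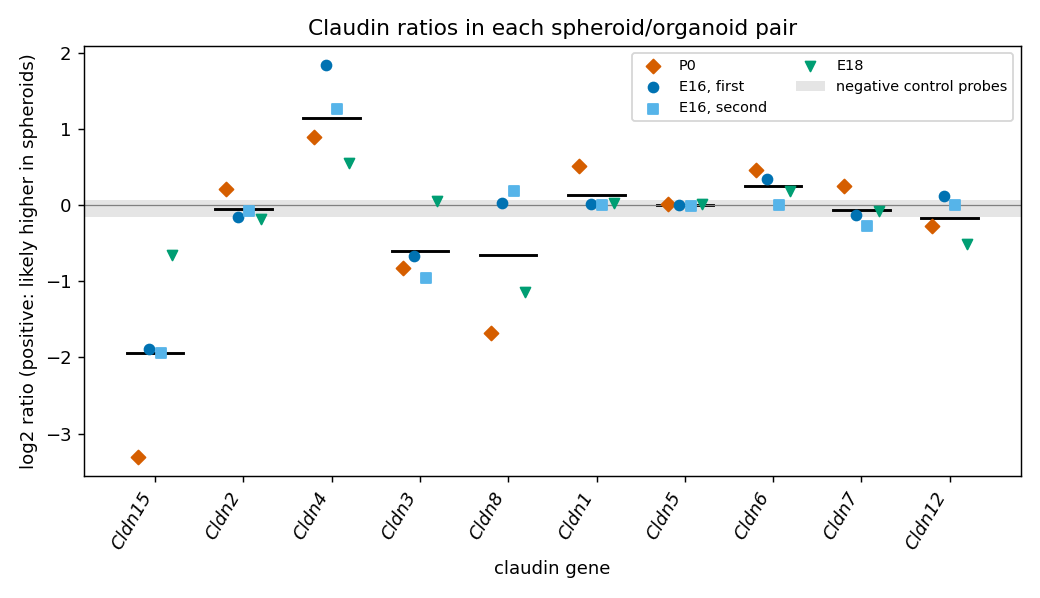
Log2 ratio of each of the 10 claudins (x axis) in the 4 spheroid/organoid pairs (symbols), with the mean as a black line and the range of negative control probes in grey, positive values being likely higher in spheroids. Cldn15 is below 0 and Cldn4 above 0 in 4 of 4 pairs, while Cldn8 splits, near 0.1 on average in the E16 pairs and near -1.4 in the later ones.

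Cldn4 tightens junctions against sodium and is, with Cldn3, a receptor of the Clostridium perfringens enterotoxin. Its ratio was 1.83 and 1.27 at E16, 0.56 at E18 and 0.90 at P0. Every pair was positive, with both E16 pairs above the later ones. The mean was 1.14 ± 0.55, with an interval from 0.49 to 1.78 and an adjusted p of 0.0929, and it ranked 242 from the highest. Cldn4 and Cldn15 were the 2 claudins with a mean of at least 1 in size, against 3.78% of all genes. In each pair Cldn4 had the highest ratio of the 10, and Cldn15 the lowest except in the E18 pair, where Cldn8 was lower. Outside the 10, Cldn23 lay above Cldn4 at E18 and P0, at 1.07 and 1.20, and Cldn16 at P0, at 0.99.

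Cldn3, the neighbour of Cldn4 and also a sealing claudin, had the opposite sign in most pairs. Its ratio was -0.67 and -0.96 at E16, 0.052 at E18 and -0.83 at P0. Only the E18 pair was not clearly negative. The mean was -0.60 ± 0.45, with an interval from -1.14 to -0.07 and an adjusted p of 0.197. Without the E18 pair Cldn3 passed, at -0.82 with an adjusted p of 0.0406 (from 0.0281 to 0.484 over 14 alternatives), a fit in which 4.89% of all genes passed. The gap between the Cldn4 and Cldn3 ratios was positive in 4 of 4 pairs, between 0.50 and 2.50, with a mean of 1.74 ± 0.88. The gap between Cldn4 and Cldn15 was 3.08 ± 1.32, from 1.21 in the E18 pair to 4.20 in the P0 pair. These genes were set side by side for their ratios, so the gaps are a description with no test.

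Cldn8, a sealing claudin best known from the distal colon and the kidney, depended on the pair. Its ratio was 0.022 and 0.18 at E16, but -1.15 at E18 and -1.68 at P0. The later pairs were thus low and the E16 pairs near 0, with no overlap. Over all pairs the mean was -0.66 ± 0.90 (adjusted p = 0.446). The 2 probes of Cldn8 had means of -0.54 and -0.77 and the same order of pairs.

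Cldn1, which seals the skin barrier, was near 0 in 3 pairs, between -0.0015 and 0.022, and 0.515 in the P0 pair. The mean of 0.14 ± 0.25 did not pass (adjusted p = 0.591). Cldn6, known from embryonic epithelia, had ratios of 0.35 and -0.0045 at E16, 0.18 at E18 and 0.45 at P0. Its mean was 0.25 ± 0.20, with an interval from 0.0030 to 0.49 and an adjusted p of 0.236. Both means were small, and neither interval reaches a 2-fold difference.

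Cldn7, which binds the adhesion molecule EpCAM and is abundant in gut epithelium, had ratios of -0.14 and -0.27 at E16, -0.08 at E18 and 0.25 at P0. Its mean of -0.06 ± 0.22 lay inside the control range (adjusted p = 0.810, interval from -0.32 to 0.21). Cldn12, linked with calcium passage, had ratios of 0.12 and -0.0040 at E16, -0.52 at E18 and -0.27 at P0, with a mean of -0.17 ± 0.28 (adjusted p = 0.548). For both genes the newborn and E18 pairs lay on the same side of the E16 pairs.

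Cldn5, the main claudin of endothelium, lay between -0.017 and 0.017 in all 4 pairs. Its mean was 0.0020 ± 0.015, and only 2.33% of genes varied less. Of 12 endothelial markers, all measured, 9 had a mean inside the control range, beside 56.9% of all genes. Their median by pair lay between -0.023 and 0.047, and 0 passed in limma (1 had an unadjusted p under 0.05). The 3 outside it were Sox17 with a mean of 0.34 ± 0.32, Tek with 0.16 ± 0.095 and Esam with -0.27 ± 0.41. Sox17 and Tek were positive in 4 of 4 pairs, while Esam was lowest in the E18 pair, at -0.85. Cldn5 itself lay inside the control range.

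In all, 1 of the 10 claudins was positive in all pairs and 1 was negative, against 16.3% and 14.4% of all genes (30.7% with either sign). The median SD between pairs was 0.27 for the 10 claudins and 0.13 for all genes. It was 0.078 for the other measured claudins and 0.19 for all 20 claudins together, so the larger spread was not shared by the rest of the family.

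**Figure D2:**
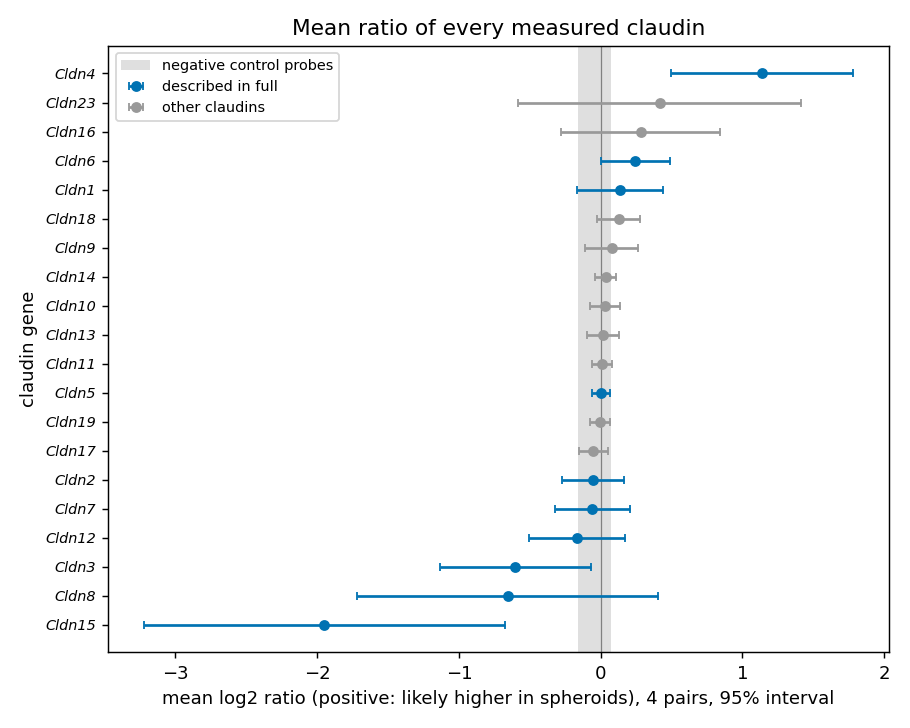
Mean log2 ratio of the 20 measured claudins with the 95% interval from limma (x axis, 4 pairs), sorted by the mean, with the range of negative control probes in grey, positive values being likely higher in spheroids. Intervals exclude 0 for Cldn15, Cldn3, Cldn6 and Cldn4, from -1.95 at the low end to 1.14 at the high end; none passed after adjustment.

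The rest of the family was measured for 10 further claudins, and 0 passed in limma (also 0 had an unadjusted p under 0.05). Their median of mean ratios was 0.03, and 6 of the 10 lay inside the control range, a share near the 56.9% of all genes. These were Cldn10, Cldn11, Cldn13, Cldn14, Cldn17 and Cldn19, with means between -0.05 and 0.04. Cldn18, the claudin of stomach and lung, had a mean of 0.13 ± 0.12 (adjusted p = 0.320) and was positive in 4 of 4 pairs. Of 6 listed gastric epithelium markers 4 were measured, and each had a mean between 2.19 and 3.15 with 0 past the threshold in limma (3 at an unadjusted p under 0.05). The ratio of Cldn18 was therefore much smaller than those of the gastric markers. Cldn16, a claudin of kidney magnesium transport, was 0.99 at P0 and lay between -0.050 and 0.093 elsewhere; its stage difference passed only without the E18 pair, at -0.90 (adjusted p = 0.0492, in a range from 0.0492 to 0.970), a fit in which 2.93% of all genes passed and the E16 pairs alone gave the spread. Cldn23 was -0.09 and -0.52 at E16, but 1.07 at E18 and 1.20 at P0, with a mean of 0.42 ± 0.85 (adjusted p = 0.622). Cldn9, known from the inner ear, had the same order of stages at smaller size, with a mean of 0.08 ± 0.15 (adjusted p = 0.630).

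Stage was the other comparison, the E16 pairs against the pairs of E18 and P0. In limma 0 of 15123 genes passed, so 0% of genes and 0 of 10 claudins were called. At an unadjusted p under 0.05 there were 3 claudins, Cldn8, Cldn12 and Cldn4, all with a higher ratio at E16, against 19.1% of genes. The E16 and later values did not overlap for 6 of the 10 claudins, a share to be read against 50.8% of all genes. For Cldn8 the mean ratio was 0.10 at E16 and -1.41 later, a difference of 1.51 with an interval from 0.84 to 2.19 (adjusted p = 0.108). For Cldn12 it was 0.058 at E16 and -0.39 later, a difference of 0.45 with an interval from 0.095 to 0.81 (adjusted p = 0.192). For Cldn4 it was 1.55 at E16 and 0.73 later, a difference of 0.82 with an interval from 0.027 to 1.62 (adjusted p = 0.251). All of these had higher ratios at E16, but E18 and P0 stand on 1 animal each.

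Cldn8 passed when either later pair was left out, at 1.25 without the P0 pair (adjusted p = 0.0344) and at 1.78 without the E18 pair (adjusted p = 0.0492), in a range of adjusted p from 0.0344 to 0.545 over 12 alternatives. The first of these fits called 10.2% of all genes and the other 2.93%. In these fits the spread came from the E16 pairs alone, and the lone later pair was assumed to vary like them. Cldn15 differed by only 0.06 between E16 and later, but its later pairs lay on either side of the E16 pairs. Its difference was -1.27 against E18 alone (adjusted p = 0.0293) and 1.38 against P0 alone (adjusted p = 0.0492), in a range from 0.0293 to 0.999. These values come from the same fits and stand beside the same shares of all genes. So the sign for Cldn15 depended on which later animal was used. The largest difference in the other direction was that of Cldn23, a mean of -0.30 at E16 and 1.13 later (difference -1.43, interval from -1.98 to -0.89, adjusted p = 0.0962).

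**Figure D3:**
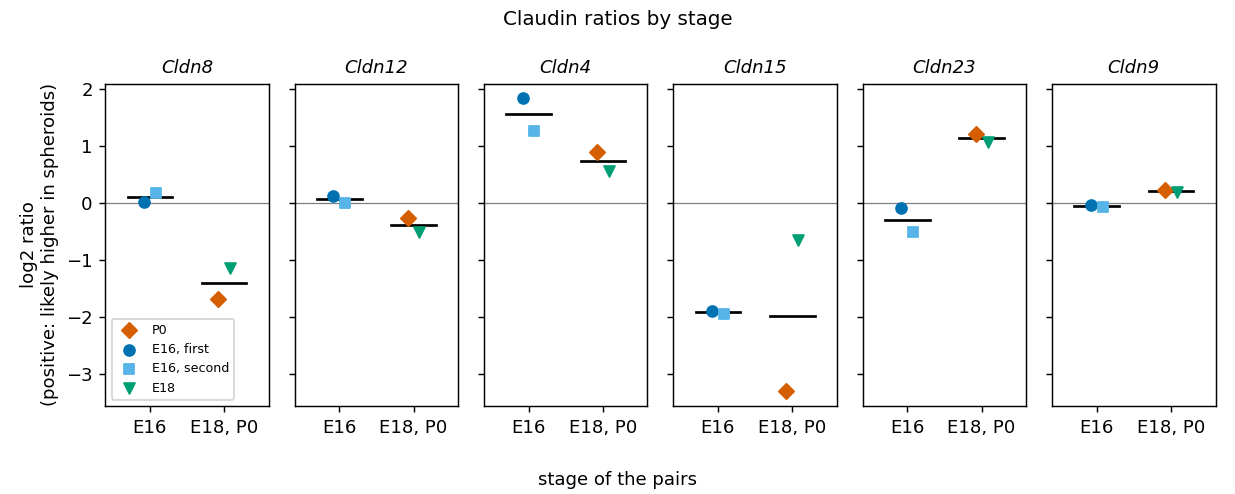
Log2 ratio of 6 claudins by stage (x axis, E16 against E18 and P0), with black lines for the mean of each side, positive values being likely higher in spheroids. Cldn8 is lower in the later pairs, Cldn23 higher, and the later values of Cldn15, -3.30 and -0.65, lie on both sides of the E16 values.

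Claudins work with scaffold, tricellular and polarity proteins, and a list of 32 such tight junction partners held 27 measured genes. Of these 3 were higher in spheroids in limma and 0 lower, beside 3.02% and 1.34% of all genes, with a median of mean ratios of 0.10 (-0.0033 over all genes). At an unadjusted p under 0.05 there were 10, beside 20.9% of all genes. In all pairs 11 were positive and 0 negative, beside 16.3% and 14.4% of all genes. Ildr1, which recruits tricellulin to the corners where cells meet, had ratios of 1.15 and 0.94 at E16, 1.47 at E18 and 1.49 at P0. Its mean was 1.26 ± 0.26 (adjusted p = 0.0235), with probe means of 0.89 and 1.63. Tjp1, the ZO-1 scaffold that binds the tails of claudins, had ratios of 0.97 and 0.85 at E16, 1.04 at E18 and 0.63 at P0. Its mean was 0.87 ± 0.18 (adjusted p = 0.0241). F11r, the junctional adhesion molecule A, had ratios of 0.57 and 1.03 at E16, 0.55 at E18 and 0.72 at P0. Its mean was 0.72 ± 0.22 (adjusted p = 0.0433). These partners were positive in every pair. The polarity protein Pard6b, at 0.66 ± 0.23 (adjusted p = 0.0541), and the trafficking protein Rab13, at 0.44 ± 0.18 (adjusted p = 0.0758), did not pass but were positive in 4 of 4 pairs. Ocln, which encodes occludin, had a mean of -0.08 ± 0.37 (adjusted p = 0.859).

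Adherens junctions lie beneath tight junctions, and 11 of 12 listed genes of that zone and its adhesion molecules were measured. Of these 0 were higher and 1 lower in limma, beside 3.02% and 1.34% of all genes, with a median of 0.08. At an unadjusted p under 0.05 there were 3 of the 11, beside 20.9% of all genes. The lower gene was Epcam, the epithelial adhesion molecule that keeps Cldn7 stable, with ratios of -0.72 and -0.61 at E16, -0.67 at E18 and -0.50 at P0. Its mean was -0.63 ± 0.095 (adjusted p = 0.0181), while the Cldn7 interval given above includes 0. The beta-catenin gene Ctnnb1 had a mean of 0.51 ± 0.22 (adjusted p = 0.0793), Nectin2 0.31 ± 0.22 (adjusted p = 0.189), the plakoglobin gene Jup 0.23 ± 0.22 (adjusted p = 0.304) and Nectin3 -0.15 ± 0.11 (adjusted p = 0.242). The E-cadherin gene Cdh1 had a mean of -0.05 ± 0.29 (adjusted p = 0.882). Of 6 epithelial markers, Epcam and Cdh1 included, 1 was lower and 1 higher, beside 1.34% and 3.02% of all genes. The higher one was the keratin Krt18, at 1.44 ± 0.21 (adjusted p = 0.0151). The keratins Krt19, at 1.07 ± 0.54 (adjusted p = 0.101), and Krt8, at 0.42 ± 0.16 (adjusted p = 0.0645), did not pass but were positive in 4 of 4 pairs. Vil1 had a mean of -0.28 ± 0.49 (adjusted p = 0.559).

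The calls of junction partners depended on which pairs were used. Without the first E16 pair Ildr1, Tjp1, F11r and Epcam did not pass (adjusted p of 0.158, 0.163, 0.184 and 0.136), nor without the second (0.0888, 0.127, 0.103 and 0.113), when 2 and 0 of all genes passed (2118 and 2346 had an unadjusted p under 0.05). Without the P0 pair Ildr1 (adjusted p = 0.0785 in limma) and F11r (0.139) did not pass, in a fit where 145 of all 15123 genes passed. With the E18 pair left out F11r did not pass (0.0654), while Pard6b did (0.0394), and 4.89% of all genes passed. Ildr1 also did not pass on a single probe (adjusted p = 0.0890), nor F11r with a robust prior (adjusted p = 0.0525). Their ratios stayed on the same side of 0 in each of these fits.

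**Figure D4:**
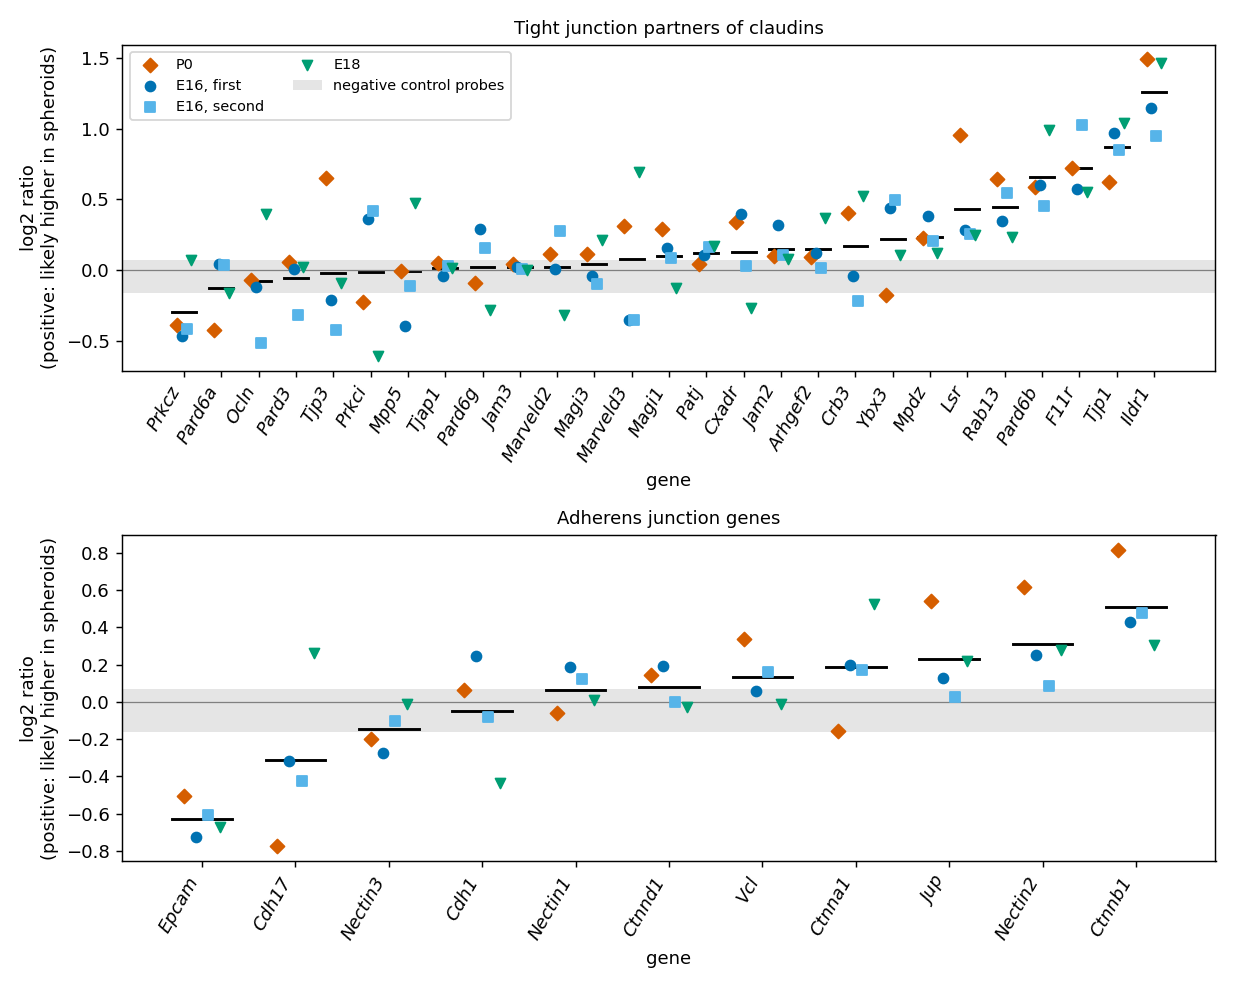
Log2 ratios of 27 tight junction partners and 11 adherens junction genes (x axes, sorted by the mean) in the 4 pairs (symbols), with means as black lines and the range of negative control probes in grey, positive values being likely higher in spheroids. Ildr1, Tjp1 and F11r lie above 0 and Epcam below 0 in 4 of 4 pairs, with means of 1.26, 0.87, 0.72 and -0.63.

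Over the whole array the columns were centred, with medians from -0.0055 to -0.001, and 4.50% to 6.16% of genes had a ratio above 1 in size. The E16 pairs had a Pearson correlation of 0.916 across genes, which are not independent replicates, while other pairs ranged from 0.316 to 0.650. The test counts the E16 animals as independent, and the labels do not say whether they were littermates. Mesenchyme markers had 0 of 8 past the threshold (0 at an unadjusted p under 0.05) and 7 inside the control range, where 56.9% of all genes lay. The other, Vim, which encodes vimentin, was -0.22 and -0.046 at E16, -0.90 at E18 and -0.61 at P0, with a mean of -0.45 ± 0.39 (adjusted p = 0.247). Like Cldn8 and Cldn12 it had lower ratios in both later pairs than at E16 (E16 minus later 0.62, adjusted p = 0.164), and its part in their ratios was not tested. The 4 measured of 6 leukocyte markers all lay inside the control range. Paneth cell markers had 2 of 5 measured lower, beside 1.34% of all genes, with a median of -3.21. Of 7 squamous markers 3 were higher, beside 3.02% of all genes, namely Krt4, Lor and Ivl, with means between 2.47 and 3.05. In all pairs 6 of the 7 were positive, beside 16.3% of all genes. Krt14, at 0.26 ± 0.19, and Krt13, at 0.12 ± 0.095, did not pass in limma (adjusted p = 0.205 and 0.251). Krt5 and Trp63 lay inside the control range. The part of these squamous markers in the Cldn4 or Cldn1 ratios was not tested.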

How the data were processed

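Spheroid and organoid RNA of each of 4 animals was hybridised to MEEBO 2-colour arrays of 70mer probes with dye-swap, per the labels. The values deposited by the authors, 1 per probe and animal, are taken as log2 ratios. All are whole multiples of 0.0005 and reach 7.51. Background correction, normalization and the combination of dye orientations are not stated in the labels. The unit is unstated too, and the direction follows the titles, which name spheroids first.

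Of 38083 probes, 22941 had a gene in GEO's platform annotation that was found in RefSeq (GRCm38.p6), and 15142 did not. The 3005 probes with a control prefix, which include probes with and without such a gene, were left out. The 22305 named probes that remained were averaged to 15123 genes, with symbols updated through RefSeq. All 4 pairs form 1 group. The mean ratio was tested against 0, and E16 pairs against later pairs, in limma 3.58.1 (lmFit, eBayes; R 4.3.3), as two-sided tests adjusted over all genes by Benjamini-Hochberg. The fits were run on simulated ratios, with large shifts added to genes of below-median SD and the pairs drawn independently. That run does not bear on the claudin calls, since the 10 claudins had a higher median SD than all genes and the E16 pairs were correlated. Means carry SD with n = 4, and the number of arrays limits the precision. The 94 negative control probes give the control range. The alternatives listed in the closing section changed 1 choice at a time.

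The claudins and gene lists were chosen with earlier results of these data known. All 10 claudins, every other measured claudin and, per junction list, the 5 genes with the largest moderated t were named; Ocln, Cdh1, marker genes and the promoter motifs were chosen after values were seen. A protein sequence was not used here.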

Additional observations from a re-analysis of the deposited data

Results flagged for a closer look

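Among 30 named genes, 3 had a pair far from the others; chance flags about 1 in 20 groups. Cldn1 was 0.515 in the P0 pair against -0.0015 to 0.022 in the others. Cldn16 was 0.99 in the P0 pair against -0.050 to 0.093. Cldn18 was 0.307 in the first E16 pair against 0.054 to 0.072.

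Among the 30 named genes, the E16 pairs and the later pairs had opposite signs for 5, all of them claudins. The named junction genes were picked for the largest moderated t over all pairs, which leaves little room for opposite signs. That all 5 are claudins therefore follows largely from how the genes were named. The share of all genes with opposite signs was not counted, so no pattern of claudins can be read from these 5. A wider measure, groups of pairs that did not overlap, held for 50.8% of all genes. The difference, E16 minus later, was 1.51 for Cldn8 (adjusted p = 0.108 in limma), -1.43 for Cldn23 (adjusted p = 0.0962), -0.26 for Cldn9 (adjusted p = 0.137), 0.11 for Cldn13 (adjusted p = 0.523) and -0.024 for Cldn5 (adjusted p = 0.883). None of these 5 passed, and the mean ratios of Cldn5 and Cldn13 over all pairs lay inside the control range.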

How the results depend on the processing

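Of the 10 claudins, 8 kept the sign of their mean ratio under all 14 alternatives, and Cldn5 and Cldn7, both near 0, did not. Cldn4 ranged from 0.91 to 1.38 (adjusted p from 0.0253 to 0.285) and Cldn15 from -2.38 to -1.496 (adjusted p from 0.0042 to 0.356). The count of claudins past the threshold was 0, and it was 2 with array weights (Cldn4 and Cldn15), 1 with a threshold of 0.1 (Cldn4), 6 with a mean of the 3 stage means and 0 to 1 when each pair was left out in turn. The stage-mean fit takes its spread from the E16 animals alone, whose ratios correlated at 0.916 across genes, and its rate of false calls was not tested. The count of all genes was 660, and it was 1417 with array weights, 1381 with the threshold of 0.1, 3763 with stage means, 256 with a 2-fold rule and 0 to 740 without single pairs. In the stage comparison 509 genes and 0 claudins passed at 0.1. Without single pairs 0 to 1544 genes and 0 to 2 claudins (Cldn8 and Cldn15) passed. There the Cldn15 difference turned from 0.06 to -1.27 without the P0 pair, since its later pairs lie on both sides of the E16 pairs. Scaling, centring, a robust prior, single probes, probes in place of genes and kept control prefixes left the claudin counts at 0 in both comparisons. The exact permutation tests could not pass, with smallest p of 0.125 and 0.333. Signal over background is unknown, so a ratio near 0 has no stated precision beyond the spread between pairs.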

Other observations

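Several claudins lie next to each other in the gene table with no protein-coding gene between them. Cldn1 and Cldn16 are such neighbours on chromosome 16, and both had their highest ratio in the P0 pair, 0.515 and 0.99, with values between -0.050 and 0.093 in the other pairs. Cldn17 and Cldn8 are neighbours too, yet Cldn17 lay between -0.14 and 0.033 in all pairs while Cldn8 reached -1.68. Cldn6 and Cldn9, neighbours on chromosome 17, were each highest in the P0 pair, at 0.45 and 0.23, but Cldn6 was positive and Cldn9 negative in the first E16 pair, at 0.35 and -0.040. Cldn4 and Cldn3 had opposite signs in 3 of 4 pairs. The P0 pair was also the highest for Cldn2, Cldn7, Cldn10 and Cldn23, at 0.21, 0.25, 0.12 and 1.20, so a highest ratio there was not particular to neighbours. These are values of 4 pairs, with no test of neighbourhood.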
